A study of Canis lupus familiaris with 11 samples.

Results

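The cytosolic ribosomal protein genes are the genes for the protein part of the ribosomes that translate most messenger RNA of the cell. They were chosen as the protein-coding genes of the count table whose symbol begins with RPL or RPS, without the RPS6K kinases and RPS19BP1, with the entry of highest mean count for each symbol. This gave 54 genes of 26178 in the table, 34 of the large subunit (RPL) and 20 of the small subunit (RPS). Their symbols stood on 73 protein-coding entries in all.

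A ribosome joins a small subunit, which reads the messenger RNA, to a large subunit, which forms the peptide bonds. Each holds ribosomal RNA and one copy or more of many small, basic proteins, made in matched amounts and assembled in the nucleolus. In mammals most of their messenger RNAs begin with a terminal oligopyrimidine tract, a run of pyrimidines at the 5′ end through which mTOR signalling and LARP1 control their translation. MYC is a known activator of their transcription.

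RNA was sequenced from MDCKII cells, a line of canine kidney epithelium that grows as a polarised sheet. The series asks how such a sheet answers to lateral compression and what part lamin A, the nuclear lamina protein encoded by LMNA, plays in it. The KO compressed group (3 libraries) held LMNA KO cells grown for 3 to 4 d, compressed laterally and left to recover for 2 h. The KO control group (2 libraries) held LMNA KO cells grown for 3 to 4 d and not compressed. The WT compressed group (3 libraries) and the WT control group (3 libraries) held wild-type cells handled in those same ways. The series' own design note names wild-type cells under different conditions and no compression, so groups follow the sample labels alone. The labels give no further allele or agent and do not say how many KO clones were used. They name no sham handling and no recovery for the controls, so compression, handling and recovery time cannot be told apart. They do not say that replicates were separate cultures, so p-values measure only the spread between these samples.

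Totals ran from 10420214 to 17999623 counts per library. LMNA had 24.5 to 43.0 counts scaled to library size (counts per 1e6, CPM) in KO compressed and 39.7 to 53.0 in KO control cells. It had 714 to 845 CPM in WT compressed and 678 to 1250 CPM in WT control cells, so the libraries followed their genotype labels. Within each genotype the LMNA ranges of compressed and control cells overlapped, so LMNA could not check the compression labels. All 8 kidney epithelium markers reached 1 CPM in some library, with a summed level of 3390 to 5444 CPM. CDH16 was at 0 in WT compressed library 3. Of the markers of other cell types, 7 of 8 for fibroblasts and smooth muscle stayed below 1 CPM in every library. The same held for 5 of 6 for endothelium and 4 of 6 for immune cells. In that order, 2, 1 and 2 of them were at 0 in every library. In these bulk samples, fewer cells of a type and less RNA per cell cannot be told apart.

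The 54 genes fell into a highly expressed majority and a silent remainder. A mean of at least 1000 counts per library was found for 36 genes, a mean of 1 to 1000 for 7, and a mean under 1 count for 11, of which 8 had no count in any library. Per unit of gene length, in FPKM, which scale counts by gene length and by library size, the 5 highest genes were RPSA, RPL35, RPL7, RPS27A and RPS12. RPSA, a small subunit protein also known as the laminin receptor precursor, averaged 2098 FPKM and ranged from 1661 to 3117 over the 11 libraries. RPL35, which sits near the exit of the nascent chain, averaged 2081 FPKM, and RPL7 averaged 1992 FPKM. RPS27A, made as a fusion with ubiquitin, averaged 1735 FPKM, and RPS12 averaged 1670 FPKM. These ranges overlapped one another, so the order among the leading genes was not fixed by the libraries. The median over all 54 genes was 620.8 FPKM.

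**Figure D1:**
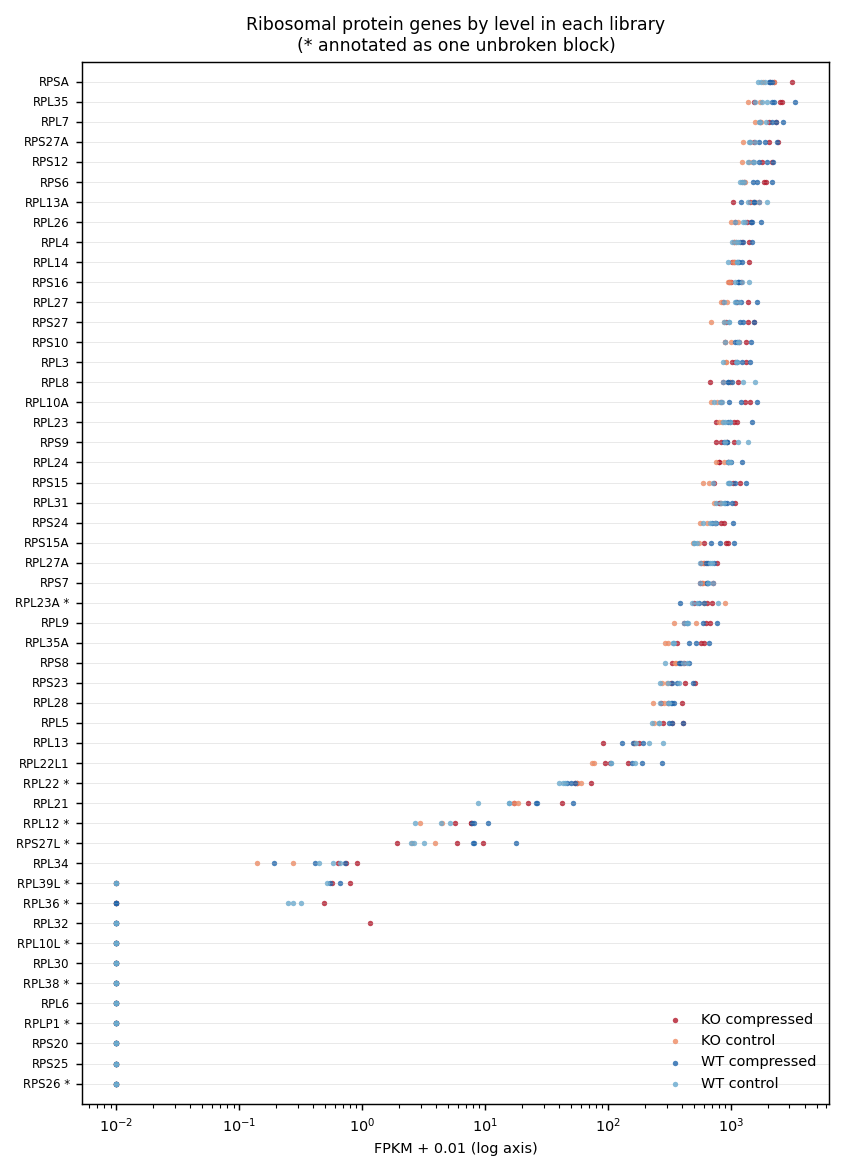
Level of 51 of the 54 ribosomal protein genes in each of the 11 libraries, as FPKM + 0.01 on a log axis, coloured by group. Genes are ordered by mean FPKM from RPSA (2098) to the 8 genes with no count, and a star marks the 10 of these genes annotated as one unbroken block.

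The silent members were mostly entries that carry a ribosomal protein symbol beside a second entry that was expressed. In the annotation 12 of the 54 genes span exactly their own gene length, so they have no intron. Only 2 of these 12 averaged at least 1000 counts. The table also pairs each gene with a UniProt protein. For 15 members another entry that carried the member's symbol, by name or by protein match, held more counts. RPL6, of the large subunit, had no count under its own symbol, while an entry matched to the RPL6 protein averaged 1193 to 1409 CPM over the 4 groups. RPS26, which lies at the messenger RNA exit channel, had no count either, against 1027 to 1777 CPM for its matched entry. RPS20, RPS25, RPL30, RPL38 and RPLP1 likewise had no count under their symbols and an expressed entry under their protein match. RPL10L, a germline-enriched copy of RPL10, had no count. The entry named RPL39L, after the testis-enriched copy of RPL39, averaged under 1 count, and its protein match is RPL39. For these genes a 0 concerns the named entry and says nothing about the protein.

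Some values of expressed members were uncertain for a related reason. The RPS15A entry spans 20457 bases of chromosome 6 (CanFam3.1) and its protein match is ARL6IP1, a membrane protein of the endoplasmic reticulum, so its reads may come from both. The RPS27L entry is a block of 252 bases whose protein match is RPS27, and it averaged only 1.51 CPM. The RPL12, RPL22 and RPL23A entries are also single blocks, and 61 other entries carried the RPL23A symbol by name or protein match. Reads of such copies can be shared with the gene they resemble, and the sources used here do not state how the counting treated them.

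The members together took 3.33, 2.77 and 2.45% of all counts in KO compressed libraries 1, 2 and 3, and 2.35 and 2.59% in KO control libraries 1 and 2. They took 2.96, 2.85 and 3.28% in WT compressed libraries 1, 2 and 3, and 2.30, 2.77 and 2.77% in WT control libraries 1, 2 and 3. All WT compressed libraries lay above all WT control libraries. KO compressed library 3 lay between both KO controls, so the KO groups overlapped. The mean share was 2.85 ± 0.449% in KO compressed (SD, n = 3) and 2.47 ± 0.166% in KO control cells (SD, n = 2). It was 3.03 ± 0.224% in WT compressed and 2.62 ± 0.271% in WT control cells (SD, n = 3 each). The 60 mitochondrial ribosomal protein genes, which serve the separate ribosome of that organelle, took 0.312, 0.312, 0.337 and 0.339% in KO compressed, KO control, WT compressed and WT control cells.

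**Figure D2:**
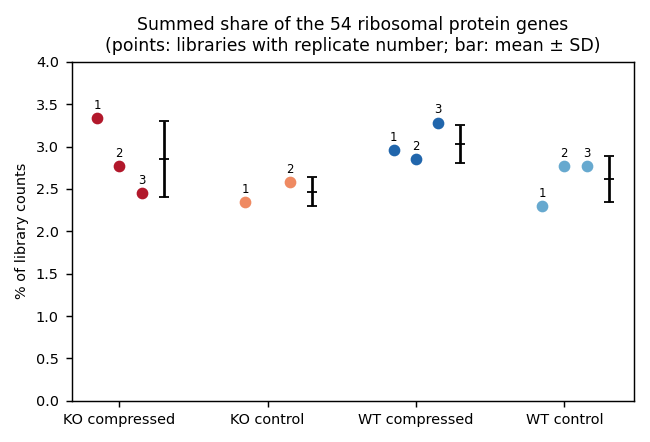
Percentage of each library's counts that fell on the 54 ribosomal protein genes, with the replicate number above each point and the mean ± SD of each group beside it. The 3 WT compressed libraries (2.85 to 3.28%) lie above the 3 WT control libraries (2.30 to 2.77%), while KO compressed library 3 lies within the range of the KO controls.

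A few libraries held most of the members' highest and lowest values, which were not counted over all genes. Of the 42 members with enough counts to be tested, 24 were highest in WT compressed library 3 and 12 in KO compressed library 1, where all 42 lay above their own mean. KO control library 1 held the lowest value of 19 members and WT control library 1 that of 11. KO compressed library 3 had only 6 members above their own mean. The median deviation from each member's mean was 0.43 in WT compressed library 3 and 0.31 in KO compressed library 1, against −0.29 in KO control library 1 and −0.25 in WT control library 1, on the log2 CPM scale. Over all tested genes the same median lay between −0.01 and 0.03 in every library. The share of mitochondrially encoded transcripts, which differed between libraries too, was 2.90 to 4.74% in KO compressed, 2.61 to 2.65% in KO control, 2.07 to 2.22% in WT compressed and 2.61 to 3.84% in WT control libraries, and its part in the results was not tested.

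**Figure D3:**
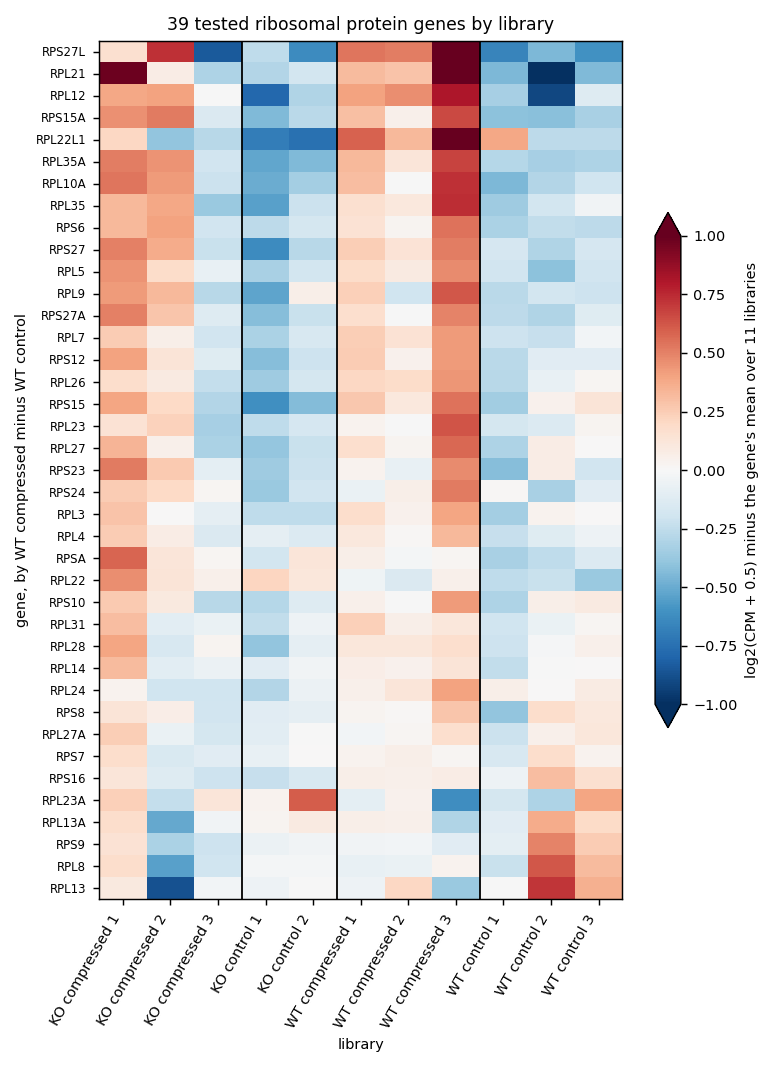
Deviation of 39 of the 42 tested ribosomal protein genes from their own mean over the 11 libraries, on the log2(CPM + 0.5) scale, with red above and blue below the mean. Genes run down the page by their change in WT compressed against WT control cells, and the colour scale ends at −1 and 1.

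In wild-type cells most ribosomal protein transcripts were somewhat higher after compression, and 3 of them, RPS15A, RPL21 and RPL35A, passed the test. The median log2 fold change over the 42 tested members was 0.32, against −0.02 over all 13560 genes tested. In 35 members the change was positive, against 48.5% of all genes. At a threshold of 0.05 on Benjamini-Hochberg adjusted p-values over all genes, the edgeR quasi-likelihood test called 3 of 42 members higher, against 3.85% of all genes, and 0 lower, against 2.4%. At an unadjusted p under 0.05 it found 15 members higher, against 15.4% of all genes, and 0 lower, against 16.4%. All WT compressed libraries lay above all WT control libraries in 22 members, against 21.2% of all genes, and below them all in 0, against 20.8%.

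RPS15A, a small subunit protein, had 874.8, 737.3 and 1125 CPM in WT compressed cells, against 535.0, 532.1 and 567.8 CPM in WT control cells. The control libraries lay close together and every compressed library lay above them. The log2 fold change was 0.74 ± 0.19 (SE; edgeR quasi-likelihood test, Benjamini-Hochberg adjusted p = 0.0435). RPL35A, a large subunit protein mutated in some families with Diamond-Blackfan anaemia, had 514.5, 447.3 and 655.2 CPM in WT compressed cells, against 336.5, 325.4 and 331.5 CPM in WT control cells. It too had no overlap and a narrow control range, and its log2 fold change was 0.70 ± 0.19 (edgeR quasi-likelihood test, adjusted p = 0.0470). RPL21, of the large subunit, was a low entry with 33.8, 32.9 and 65.9 CPM in WT compressed cells, against 19.6, 11 and 19.7 CPM in WT control cells. Its log2 fold change was 1.40 ± 0.36 (edgeR quasi-likelihood test, adjusted p = 0.0448). WT compressed library 3 stood well above the rest in RPL21. A second entry matched to the RPL21 protein, annotated as a pseudogene, had more counts. Its log2 fold change was 0.49 ± 0.17 (edgeR quasi-likelihood test, adjusted p = 0.0837).

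**Figure D4:**
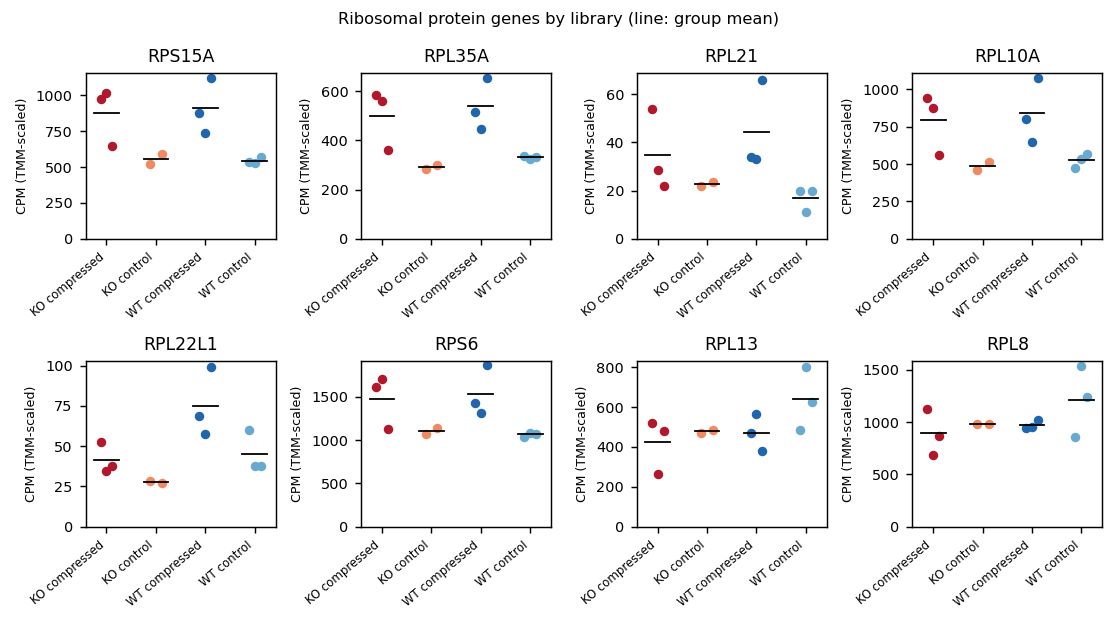
TMM-scaled CPM of 8 ribosomal protein genes in each library, with a line at the mean of each group and axes that start at 0. RPS15A, RPL35A, RPL21, RPL10A and RPS6 have all WT compressed libraries above all WT controls, while RPL13 and RPL8 have their highest value in WT control library 2.

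These 3 calls depended on which libraries entered the fit. No member was called without KO control library 1 or 2, or without WT compressed library 1, 2 or 3. The same held without WT control library 2 or 3. In each of these fits 0 or 1 of all genes were called. Without KO compressed library 2, 3 and 1 the test called 10, 7 and 4 members, against 3066, 913 and 1229 of all genes. The median over members was 0.20 without WT compressed library 3 and 0.24 to 0.39 without each of the others.

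Several more large members leaned the same way without passing the test. RPL10A, of the large subunit, had 804.8, 650.3 and 1077 CPM in WT compressed cells, against 476.5, 531.3 and 566.2 CPM in WT control cells, a log2 fold change of 0.69 ± 0.21 (adjusted p = 0.0588 in the edgeR quasi-likelihood test). RPS6, the small subunit protein phosphorylated by the S6 kinases, had 1424, 1310 and 1869 CPM in WT compressed cells, against 1033, 1086 and 1075 CPM in WT control cells. RPL5, which binds 5S ribosomal RNA and can hold MDM2 outside the ribosome, had 1614, 1514 and 1976 CPM in WT compressed cells, against 1246, 1071 and 1249 CPM in WT control cells. None of these 3 genes overlapped between the groups. Their relatives in the table included RPL22L1, the paralogue of RPL22, with 68.9, 57.3 and 99.1 CPM in WT compressed cells and 59.8, 37.9 and 38.0 CPM in WT control cells. WT compressed library 2 lay below WT control library 1, and the log2 fold change of RPL22L1 was 0.73 ± 0.25 (edgeR adjusted p = 0.0751). RPS27L, the low entry of uncertain identity, had 2.08, 2.03 and 4.54 CPM in WT compressed cells and 0.630, 0.805 and 0.672 CPM in WT control cells, with a log2 fold change of 2.01 ± 0.60 (edgeR adjusted p = 0.0571). RPSA, the member with the highest level, had a log2 fold change of 0.26 ± 0.15 (edgeR adjusted p = 0.262).

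The negative values in wild-type cells came from 7 members, led by RPL13, RPL8 and RPS9. RPL13, an RNA-binding protein of the large subunit, had 471.4, 564.5 and 377.4 CPM in WT compressed cells and 487.0, 802.9 and 623.8 CPM in WT control cells. RPL8, which lies close to the peptidyl transferase centre, had 947.6, 956.3 and 1022 CPM in WT compressed cells and 856.2, 1540 and 1245 CPM in WT control cells. RPS9, of the small subunit, had 553.0, 555.3 and 523.0 CPM in WT compressed cells and 530.0, 799.7 and 677.4 CPM in WT control cells. All 3 had their highest value in WT control library 2, and in all 3 the groups overlapped. Their log2 fold changes were −0.44 ± 0.24, −0.32 ± 0.21 and −0.30 ± 0.16, with edgeR adjusted p-values of 0.229, 0.301 and 0.223. Without WT control library 2 they were −0.24, −0.11 and −0.15, and without WT control library 1 that of RPL8 was −0.51.

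Both subunits had like values. The median change in log2 was 0.32 over the 25 tested large subunit genes, with 2 called higher, and 0.33 over the 17 small subunit genes, with 1 called higher. The 36 members with a mean of at least 1000 counts had a median of 0.31, and the 6 tested single blocks one of 0.28. Across the 42 members the log2 fold change had a Pearson r of −0.58 with the log2 mean CPM. The r with the log2 gene length was −0.18. Both are descriptions over genes that share the same libraries. The largest changes were those of the low entries RPS27L (2.01), RPL21 (1.40) and RPL12 (1.12), and r without them was not computed. The members are short genes, with a median length of 608 bases against 2156 for all tested genes. The 2834 other tested genes under 1000 bases had a median change of −0.03. These leave out members, mitochondrially encoded genes and the entry with most counts for each ribosomal protein symbol or protein match.

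In KO cells most members also had positive changes after compression, with no gene past the threshold. The median log2 fold change was 0.33 over the 42 members, against 0.00 over all genes, and it was positive in 37 members, against 49.4% of all genes. The median was 0.18 without KO compressed library 1 and 0.20 without KO control library 1, and up to 0.44 without the other libraries. After Benjamini-Hochberg adjustment, the edgeR quasi-likelihood test called 0 of 42 members in either direction and 0% of all genes. At an unadjusted p under 0.05 it found 13 members higher, against 3.41% of all genes, and 0 members lower, against 2.7%. All KO compressed libraries lay above both KO controls in 14 members, against 13.5% of all genes, and below both in 0, against 14%. Over all genes DESeq2 called 1, and limma called 1 on log2(FPKM + 1) and 0 on log2(FPKM + 0.1), and none of these was a member.

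RPL35A had 584.9, 560.0 and 359.7 CPM in KO compressed cells, against 285.5 and 301.3 CPM in KO control cells, a log2 fold change of 0.77 ± 0.21. RPL10A had 940.5, 876.1 and 559.2 CPM in KO compressed cells, against 460.3 and 513.2 CPM in KO control cells, a log2 fold change of 0.70 ± 0.24. RPS27, a zinc finger protein of the small subunit, had 393.9, 358.8 and 237.9 CPM in KO compressed cells, against 179.4 and 229.3 CPM in KO control cells, a log2 fold change of 0.69 ± 0.21. In all 3 genes KO compressed library 3 lay closest to the controls, and libraries 1 and 2 lay further above them, and all 3 had an adjusted p of 0.773 in the edgeR quasi-likelihood test.

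RPL23A, RPL13 and RPL13A had the largest negative values in KO cells. RPL23A, here a single block, is named for a docking protein at the exit of the nascent chain. Its entry had 335.3, 240.5 and 309.3 CPM in KO compressed cells, against 291.3 and 431.8 CPM in KO control cells. RPL13 had 521.7, 265.9 and 480.1 CPM in KO compressed cells, against 471.5 and 486.2 CPM in KO control cells. RPL13A, which can leave the ribosome and act in the control of inflammatory transcripts, had 1046, 647.9 and 901.5 CPM in KO compressed cells, against 943.0 and 984.0 CPM in KO control cells. Their log2 fold changes were −0.29 ± 0.26, −0.18 ± 0.27 and −0.16 ± 0.20. The groups overlapped in all 3, and KO compressed library 2 was the lowest for each. Without that library RPL13 and RPL13A had changes of 0.06 and 0.01, and without KO control library 2 RPL23A had one of 0.02.

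**Figure D5:**
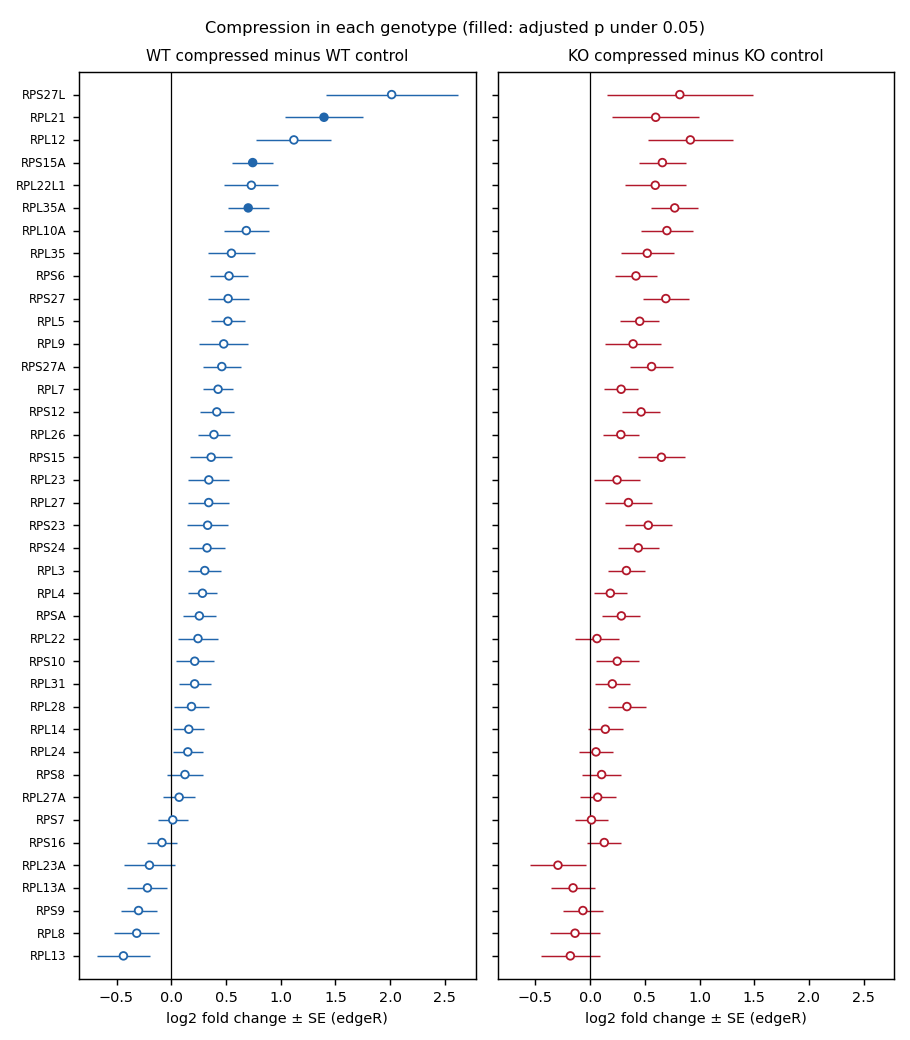
Log2 fold change ± SE of 39 of the 42 tested ribosomal protein genes for WT compressed minus WT control on the left and KO compressed minus KO control on the right, from the edgeR fit. Filled points passed an adjusted p of 0.05 (RPS15A, RPL21 and RPL35A, in wild-type cells), and the order of genes is that of the left panel.

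The changes with compression in the 2 genotypes rest on separate libraries, with one shared scaling and one shared estimate of spread. Across the 42 members they had a Pearson r of 0.83, as a description over genes. In 35 members both were positive and in 5 both were negative, namely RPL13, RPL13A, RPL23A, RPL8 and RPS9. Neither the r nor these counts were computed over all genes, so they are not shown to be particular to the members.

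The interaction of genotype and compression, the test of that difference itself, called 0 of 42 members and 0% of all genes with the edgeR quasi-likelihood test. At an unadjusted p under 0.05 it found 0 members, against 2.53% of all genes higher and 2.26% lower. DESeq2 and both limma fits also called no member. The median interaction over the members was 0.00, as the KO change minus the WT change in log2, and 21 of 42 were positive, against 51.3% of all genes. It ran from −0.12 without KO compressed library 1 to 0.12 without WT compressed library 3. Among members of at least 10 CPM, the positive values included 0.29 ± 0.29 for RPS15, of the small subunit, and 0.26 ± 0.36 for RPL13. The most negative ones in those members were −0.80 ± 0.53 for RPL21, −0.18 ± 0.28 for RPL22 and −0.14 ± 0.21 for RPL7. Each had an adjusted p of at least 0.939, and these errors leave room for differences of that size.

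Without compression, most members had slightly lower values in KO than in wild-type cells, and no member passed the test. The median log2 fold change was −0.12, against −0.01 over all genes, and it was −0.05 without KO control library 1, −0.20 without KO control library 2 and −0.07 without WT control library 3. In the fit of all libraries 11 of 42 members were positive, against 48.3% of all genes. The edgeR quasi-likelihood test called 0 members higher, against 0.133% of all genes, and 0 lower, against 0.206%. At an unadjusted p under 0.05 it found 1 member higher, against 4.59%, and 4 lower, against 3.2%, and DESeq2 and both limma fits also called no member. RPL22L1 had 28.1 and 27.1 CPM in KO control cells, against 59.8, 37.9 and 38.0 CPM in WT control cells, a log2 fold change of −0.71 ± 0.28 (edgeR adjusted p = 0.572). RPL22, the partner it resembles, here a single block, had 23.7 and 22.0 CPM in KO control cells, against 16.9, 17.4 and 15.6 CPM in WT control cells, a log2 fold change of 0.46 ± 0.20 (edgeR adjusted p = 0.622). Neither gene overlapped between the groups, and they differed in opposite directions. Over all members both KO controls lay above all WT controls in 2, against 16.9% of all genes, and below them all in 7, against 15%. RPS15 (−0.48 ± 0.22) and RPL13 (−0.41 ± 0.27) had the next lowest values among members of at least 10 CPM. RPL21 (0.45 ± 0.39) and RPL23A (0.35 ± 0.25) had the next highest. Single libraries moved several of these values. RPL22L1 was at −0.46 without WT control library 1, and RPL13 at −0.22 and RPL21 at 0.22 without WT control library 2. RPL23A was at 0.03 without KO control library 2, 0.21 without WT control library 2, 0.60 without KO control library 1 and 0.59 without WT control library 3.

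After compression, no member passed the edgeR test between KO and wild-type cells. The median log2 fold change was −0.08, against −0.01 over all genes, and it ran from −0.21 without KO compressed library 1 to 0.01 without KO compressed library 3 or WT compressed library 3. In the fit of all libraries 7 of 42 members were positive, against 49% of all genes. The edgeR quasi-likelihood test called 0 members higher, against 0.509% of all genes, and 0 lower, against 0.28%. At an unadjusted p under 0.05 it found 0 members higher, against 6.79%, and 2 lower, against 4.49%, while DESeq2 called 1 member, RPL22L1, and both limma fits called 0. RPL22L1 had 52.8, 34.7 and 37.6 CPM in KO compressed cells, against 68.9, 57.3 and 99.1 CPM in WT compressed cells. All KO compressed libraries lay below all WT compressed libraries in 4 members including this one, against 7.82% of all genes, and above them in 1, against 7.92%. The log2 fold change of RPL22L1 was −0.85 ± 0.25 (edgeR adjusted p = 0.170). RPL22 had 28.2, 22.3 and 21.1 CPM in KO compressed cells, against 19.7, 18.4 and 21.1 CPM in WT compressed cells, a log2 fold change of 0.28 ± 0.18. RPL21 (−0.35 ± 0.35) and RPL24 (−0.32 ± 0.14) were the next lowest, and RPL23A (0.25 ± 0.23) and RPSA (0.24 ± 0.15) the next highest, among members of at least 10 CPM. Without WT compressed library 3 the values of RPL21, RPL24 and RPL23A were 0.05, −0.21 and 0.08. Without KO compressed library 1 those of RPL21, RPL22, RPL23A and RPSA were −0.82, 0.14, 0.15 and 0.05. This contrast and the one between controls share no library with each other, but each shares libraries with the compression contrasts.

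Taking for every ribosomal protein symbol the entry with most counts, by name or by protein match, gave 83 symbols, of which 79 were tested. The entries could be of any annotated class. Those added for RPL21, RPS2, RPL10 and RPLP0P6 were annotated as pseudogenes, and those of RPL10 and RPLP0P6 had no count. In wild-type cells 8 of the 79 were called higher, against 3.85% of all genes, and 0 lower, against 2.4%, with a median log2 fold change of 0.33, against −0.02. Among them RPS15A and RPL35A were members, and 6 entries were not. RPL38, of the large subunit, averaged 62.9 CPM in WT compressed and 22.1 CPM in WT control cells, a log2 fold change of 1.51 ± 0.33 (edgeR quasi-likelihood test, adjusted p = 0.0410). RPL32 averaged 31.4 CPM in WT compressed and 10.6 CPM in WT control cells (1.57 ± 0.31), from a single block. RPL39 averaged 168.9 CPM in WT compressed and 86.0 CPM in WT control cells (0.97 ± 0.23), also from a single block. RPL37 averaged 143.1 CPM in WT compressed and 76.8 CPM in WT control cells (0.90 ± 0.22). RPS3A averaged 1098 CPM in WT compressed and 752.9 CPM in WT control cells (0.54 ± 0.14), and an assembled locus matched to RPS27L averaged 273.3 and 145.0 CPM in those groups (0.91 ± 0.25). In KO cells the 79 had a median of 0.34 with 0 called. RPL11, which joins RPL5 on 5S ribosomal RNA, averaged 467.3 CPM in WT compressed and 385.9 CPM in WT control cells (0.28 ± 0.18), without passing the test. The stalk proteins that recruit elongation factors had log2 fold changes of 0.23 ± 0.18 for RPLP0, 0.62 ± 0.24 for RPLP1 and −0.09 ± 0.18 for RPLP2, none past the threshold. RPS19, mutated in many families with Diamond-Blackfan anaemia, had a value of −0.36 ± 0.18.

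Of 24 other transcripts known to begin with the oligopyrimidine tract, 21 were tested, and 2 rose in WT compressed against WT control cells, against 3.85% of all genes. Their median log2 fold change was 0.23, against −0.02 over all genes, and 18 of 21 were positive, against 48.5%. EIF3E, an initiation factor subunit, averaged 421.1 CPM in WT compressed and 276.1 CPM in WT control cells (0.61 ± 0.15, edgeR adjusted p = 0.0431). NPM1, a nucleolar chaperone of ribosome assembly, averaged 2286 CPM in WT compressed and 1516 CPM in WT control cells (0.59 ± 0.15, edgeR adjusted p = 0.0435). EEF1A1, the elongation factor that brings transfer RNA to the ribosome, had a value of 0.66 ± 0.22, and EEF2, the translocation factor, one of −0.34 ± 0.14, neither past the threshold. In KO cells the median was 0.29 with 0 called.

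Of 25 regulators of ribosomal protein transcripts, all tested, 1 fell in WT compressed cells, against 2.4% of all genes, and 0 rose, against 3.85%, so the count was near that of all genes. RPTOR, the scaffold of mTOR complex 1, averaged 48.7 CPM in WT compressed and 80.0 CPM in WT control cells (−0.72 ± 0.18, edgeR adjusted p = 0.0431). MYC averaged 230.2 CPM in WT compressed and 368.6 CPM in WT control cells (−0.68 ± 0.21, edgeR adjusted p = 0.0626), and LARP1 had a value of −0.28 ± 0.21. The median of the list was −0.28 in wild-type and −0.26 in KO cells, where 0 were called.

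Of 34 genes for chaperones, import factors and surveillance of ribosomal proteins, 30 were tested, and 1 fell in WT compressed cells, against 2.4% of all genes, while 0 rose, against 3.85%. This count too was near that of all genes. ZNF598, a sensor of collided ribosomes, averaged 56.0 CPM in WT compressed and 106.3 CPM in WT control cells (−0.92 ± 0.24, edgeR adjusted p = 0.0448). CDKN1A, a target of p53, averaged 66.7 CPM in WT compressed and 134.7 CPM in WT control cells without passing the test (−1.01 ± 0.30, edgeR adjusted p = 0.0569). BTF3 and NACA, which form the nascent polypeptide-associated complex, had values of 0.52 ± 0.15 and 0.41 ± 0.16. The list's median was 0.22 in wild-type cells and 0.01 in KO cells. Of 56 tested mitochondrial ribosomal protein genes, 3 were called higher, against 3.85% of all genes, and 0 lower, against 2.4%, in wild-type cells, with a median of 0.00, and 0 in KO cells, with a median of 0.03.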

How the data were processed

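Per the labels' protocols, RNA was captured with oligo(dT), copied from random hexamers and sequenced for 11 libraries in 4 groups. The submitters' processing notes name CASAVA, FastQC, HISAT2 2.0.5 and the build CanFam3.1. The sources used here do not give the counter, the annotation release or strandedness, so overlapping genes cannot be told apart. The authors deposited raw whole-number counts per gene and FPKM values computed from them, which give levels and the limma alternatives. All 26178 table entries named a gene.

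Counts were fitted in R 4.3.3 with edgeR 4.0.16 (filterByExpr, TMM, 4 group means over all 11 libraries) and tested two-sided by the quasi-likelihood test with Benjamini-Hochberg adjustment over 13560 genes at 0.05. CPM by library are TMM-scaled, errors of fold changes are SE, and the interaction is the KO minus the WT change. Of the members, 12 of 54 did not pass the filter.

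Alternatives were DESeq2 1.42.0, limma 3.58.1 on log2(FPKM + 1) and log2(FPKM + 0.1), other scalings and filters, a replicate block and leaving out each library. One entry per symbol by name or protein match was added after seeing the data.

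The genes and lists were chosen with earlier results of these data known. Named genes are called members, the 3 highest and 3 lowest changes among members of at least 10 CPM in each comparison, the 5 highest levels and close relatives; RPL10A in wild-type cells, RPL11, RPS19, the stalk proteins and list genes were chosen after their values were seen. No replicates agreed within sampling noise (lowest chi-square per gene 5.86). Replicate numbers did not pair the samples. Values of 3 members are not reported here, while counts and medians include them.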

Additional observations from a re-analysis of the deposited data

How the results depend on the processing

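Few counts limit the values of RPS27L and RPL12, each of which had another matched entry with more counts. Of the 12 members that were not tested, 8 had no count in any library. For 10 of these 12, another entry that carried the member's symbol, by name or by protein match, held more counts. Over all genes, DESeq2 called 2558 in wild-type compression, 1 in KO compression, 127 between controls and 371 between compressed groups, against 848, 0, 46 and 107 with edgeR. With no filter on low counts there were 1754 in wild-type compression, 90 between controls and 201 between compressed groups. Limma on log2(FPKM + 1) called 0, 1, 16 and 59, and limma on log2(FPKM + 0.1) called 1 in wild-type compression, 8 between controls and 50 between compressed groups. In wild-type compression the members called numbered 3 with edgeR, against 848 of all genes, 8 with no filter, against 1754, and 10 with DESeq2, against 2558. The limma fits called 0 members each, against 0 and 1 of all genes. With 1 entry per symbol by name or protein match, 8 of 79 entries were called, and 6 of these 8 were not members. Between compressed groups DESeq2 called 1 member. As a share of summed FPKM, members took 6.11% in KO compressed, 5.44% in KO control, 6.73% in WT compressed and 5.77% in WT control cells.

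Replicate numbers gave no pairing: of 15 same-numbered pairs, 1 correlated above 0.1 (range −0.403 to 0.246), and 1 of 11 libraries correlated best with its own number. With a replicate block, edgeR called 0 members in each comparison. Over all genes the block left 0 calls in wild-type compression, 15 between controls and 53 between compressed groups, and the members' median in wild-type compression was 0.32.

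Leaving out each library in turn gave 0 to 10 members called in wild-type compression, and over all genes 0 to 3066 in wild-type compression, 6 to 106 between controls, 39 to 349 between compressed groups and 0 to 1 for the interaction. The KO change ran from −0.5517 to 0.0163 for RPL23A (positive without KO control library 2), from −0.3601 to 0.0644 for RPL13 and from −0.3146 to 0.0148 for RPL13A (both positive without KO compressed library 2). Between compressed groups RPL21 ran from −0.8177 to 0.0541 (positive without WT compressed library 3). The median over members ran from 0.20 to 0.39 in wild-type compression, 0.18 to 0.44 in KO compression, −0.20 to −0.05 between controls, −0.21 to 0.01 between compressed groups and −0.12 to 0.12 for the interaction, so the last pair changed sign. The cause of these shifts was not tested.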
